A study of Mus musculus with 6 samples.

Results

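The genes described here are 34 genes of meningeal fibroblasts and of the extracellular matrix these cells lay down, measured in the brain of mice lacking Gb5 and of their wild-type controls. They were chosen by name, with earlier results of these data known. Every probe set that the platform annotation assigns to exactly 1 of these symbols was taken, which gave 68 of the 45037 probe sets tested. All 34 genes had at least 1 such probe set, 22 had several and 12 had only 1. Each gene was read through its probe set of highest mean over the 6 arrays, the brightest, and the other probe sets are given beside it.

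The study compared Gb5ko mice, labelled Gb5-deficient, with Gb5wt mice, labelled wild type, in 3 samples of each genotype. Gnb5 encodes Gb5, the G protein beta subunit that binds RGS proteins of the R7 family. Total RNA came from the brain without the cerebellum, and each sample was hybridised to its own Affymetrix array. The labels describe littermates matched in age and sex, and the design text speaks of biological replicates, so n counts arrays. Ages, strain, the sex of each animal, pooling and the design of the Gb5 allele are not given in these sources. The labels name no treatment. In bulk RNA of this kind, fewer cells of a type and less RNA per cell cannot be told apart.

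Meningeal fibroblasts form the pia, arachnoid and dura that wrap the brain and follow its vessels inward. They secrete collagens that assemble into fibrils, which lysyl oxidases join by covalent cross-links and which small leucine-rich proteoglycans coat and space. They also carry transporters for amino acids, betaine, GABA and organic anions, and they release growth factors and retinoid signals to the cortex beneath. Many of these genes are not private to them. Endothelial and mural cells, the stroma of the choroid plexus and, for Ptgds, oligodendrocytes also express members.

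In the knockouts most of these genes read slightly lower, and none passed the test over all probe sets. Because the members were chosen with earlier results of these data known, the shares below describe them and do not test them. Of 34 members, 24 had a difference below 0 (70.6%, against 40.1% of all 18193 genes), and the median difference was -0.11 on the log2 scale against 0.05 over all genes. By limma, 0 of the 68 probe sets had an adjusted p under 0.05, against 0.0266% of all probe sets, and the smallest adjusted p was 0.158. At an unadjusted limma p under 0.05, 9 members were lower (26.5%, against 5.68% of all genes) and 1 was higher (2.94%, against 9.89%). The 9 lower members were Ogn, Lox, Foxc1, Col3a1, Igf2, Nid1, Serping1, Foxd1 and Col1a2, and the higher one was Col6a1. All knockout values lay under all wild-type values for 11 members (32.4%, against 9.01% of all genes) and above them for 2 (5.88%, against 16.1%). Counted by probe set, 17 of 68 had an unadjusted p under 0.05 (against 14.4% of all probe sets), and 14 were lower without overlap (20.6%, against 8.95%). Over the fits that left out 1 array, between 6 and 9 members were lower at that level and between 0 and 2 higher. In those fits 4.33% to 6.65% of all probe sets were lower at that level, and 9.74% to 15.0% reached it in either direction. The single higher member was lost without wild-type replicate 5 and a second was added without knockout replicate 2 or wild-type replicate 4. Since 3 against 3 arrays give no exact permutation p under 0.1, single genes were tested only within the fit over all probe sets.

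**Figure D1:**
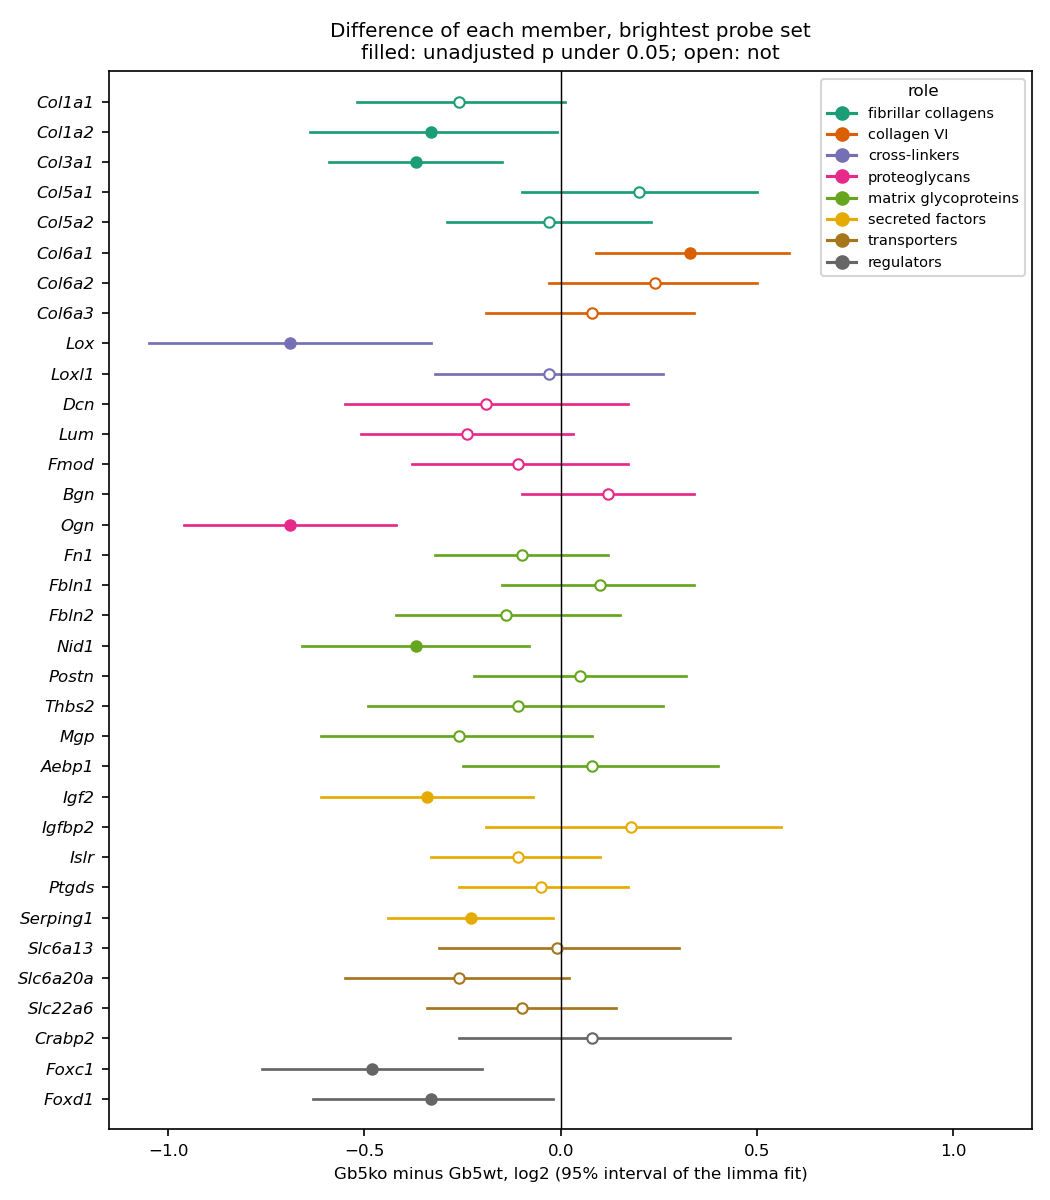
Difference between knockout and wild-type means on the log2 scale for each of the 34 members (brightest probe set), with the 95% interval of the limma fit, coloured by role; filled points have an unadjusted p under 0.05. The 9 filled points left of 0 are led by Ogn and Lox at -0.69 each, and the single filled point on the right is Col6a1 at 0.33.

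The promoters of 7 of these 10 genes are shown because these members reached an unadjusted p under 0.05 and RefSeq tables of GRCm38.p6 gave exactly 1 window. Windows were found for 24 of the 34 members. Each sequence is the 250 bases before the annotated start, read 5′ to 3′ on the strand of the gene. Capitals mark every match, on either strand, to 3 motifs. The first is the CCAAT box, searched as CCAAT with ATTGG as its form on the opposite strand. The second is the TATA box, searched as TATAAA with TTTATA as its opposite form. The third is the GC box, searched as GGGCGG with CCGCCC as its opposite form.
Col1a2 (chr6:4505368-4505617, plus strand): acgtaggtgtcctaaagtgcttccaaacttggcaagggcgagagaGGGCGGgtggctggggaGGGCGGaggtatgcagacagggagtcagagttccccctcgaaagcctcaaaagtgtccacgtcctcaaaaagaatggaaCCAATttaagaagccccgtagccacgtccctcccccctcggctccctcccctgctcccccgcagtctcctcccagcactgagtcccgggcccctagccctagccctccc
Col3a1 (chr1:45311288-45311537, plus strand): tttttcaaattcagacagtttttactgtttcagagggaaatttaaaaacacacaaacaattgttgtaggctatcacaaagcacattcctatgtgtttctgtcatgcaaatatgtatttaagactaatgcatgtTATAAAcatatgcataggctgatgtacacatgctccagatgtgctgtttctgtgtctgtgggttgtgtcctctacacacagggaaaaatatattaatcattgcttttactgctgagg
Col6a1 (chr10:76726045-76726294, minus strand): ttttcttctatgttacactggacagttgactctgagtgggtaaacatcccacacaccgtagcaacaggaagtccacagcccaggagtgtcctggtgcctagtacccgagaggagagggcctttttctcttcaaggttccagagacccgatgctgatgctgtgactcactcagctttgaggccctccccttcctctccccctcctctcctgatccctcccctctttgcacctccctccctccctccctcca
Ogn (chr13:49607765-49608014, plus strand): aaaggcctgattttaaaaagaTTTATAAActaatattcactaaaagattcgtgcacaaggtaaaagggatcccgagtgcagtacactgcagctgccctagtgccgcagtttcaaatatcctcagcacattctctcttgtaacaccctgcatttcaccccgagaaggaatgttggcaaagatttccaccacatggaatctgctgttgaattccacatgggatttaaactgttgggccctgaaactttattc
Nid1 (chr13:13437352-13437601, plus strand): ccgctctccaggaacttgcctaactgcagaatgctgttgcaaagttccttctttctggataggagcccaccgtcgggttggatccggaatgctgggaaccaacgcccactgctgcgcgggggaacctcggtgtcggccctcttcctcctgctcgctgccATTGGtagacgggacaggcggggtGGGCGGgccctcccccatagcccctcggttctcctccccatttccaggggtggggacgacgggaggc
Foxc1 (chr13:31806396-31806645, plus strand): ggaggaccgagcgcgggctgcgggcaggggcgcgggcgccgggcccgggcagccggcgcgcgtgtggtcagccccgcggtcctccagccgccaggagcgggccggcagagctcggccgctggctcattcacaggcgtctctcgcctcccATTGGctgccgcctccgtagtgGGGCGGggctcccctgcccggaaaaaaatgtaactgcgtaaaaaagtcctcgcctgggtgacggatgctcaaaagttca
Foxd1 (chr13:98353995-98354244, plus strand): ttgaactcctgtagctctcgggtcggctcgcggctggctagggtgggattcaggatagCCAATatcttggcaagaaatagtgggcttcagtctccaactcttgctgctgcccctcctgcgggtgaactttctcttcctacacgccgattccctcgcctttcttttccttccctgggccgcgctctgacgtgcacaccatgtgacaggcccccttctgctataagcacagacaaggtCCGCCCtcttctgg
Among these windows, Col1a2 held a CCAAT box whose first base lay at -109 from the start and GC boxes at -205 and -188. Nid1 held both motifs at -91 and -67, Foxc1 at -101 and -79, and Foxd1 at -192 and -14. Col3a1 held a TATA box at -117, and the same letters were found in Ogn on both strands at -229 and -227, where the matches overlap. Col6a1, the gene that read higher, held none of the 3 motifs. Over all 32851 windows, 33.8% held CCAAT, 32.7% GGGCGG and 12.4% TATAAA, and of the 33 member windows 8, 15 and 4 held them. A match is no evidence of a bound factor.

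Among the fibrillar collagens, collagens I and III read lower in the knockouts, while all probe sets of the collagen V chain Col5a1 were above 0. Col3a1, the only chain of collagen III, read 9.28, 9.42 and 9.27 in the knockouts, against 9.73, 9.70 and 9.67 in wild-type brains. Every knockout array was below every wild-type array. The difference was -0.37 ± 0.0975 (SE, n = 3 per group), or 1.29-fold lower (limma adjusted p = 0.216). A second Col3a1 probe set differed by -0.47 with overlapping groups. Col1a2, the second chain of collagen I, read 9.28, 9.55 and 9.56 in the knockouts, against 9.59, 10.03 and 9.76 in wild-type brains, a difference of -0.33 ± 0.139. Col1a1, the first chain, read 10.44, 10.48 and 10.54 against 10.74, 10.92 and 10.56, a difference of -0.26 ± 0.116. In both collagen I genes the groups only just failed to overlap, and wild-type replicate 5 was the highest array. Without that array the differences were -0.21 for Col1a2 and -0.17 for Col1a1. Dimmer probe sets of these genes differed by 0.08 for Col1a1 and by -0.07 and -0.06 for Col1a2.

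Col5a1, a chain of the collagen that starts fibrils and limits their width, differed by 0.20 ± 0.132 in its brightest probe set, where the groups overlapped. Its 95% interval ran from -0.10 to 0.50, and the difference was 0.07 without knockout replicate 1, the highest array in every Col5a1 probe set. Its other probe sets gave larger values. The first read 7.89, 7.46 and 7.59 in the knockouts, against 7.37, 7.28 and 7.07 in wild-type brains, a difference of 0.40 ± 0.137 (limma adjusted p = 0.268), and the second differed by 0.34 ± 0.139. Col5a2, its partner chain and the annotated neighbour of Col3a1 on chromosome 1, differed by -0.03 (95% interval -0.29 to 0.23) and 0.06.

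Collagen VI, which forms beaded filaments around cells, was the only role group with every probe set above 0. Col6a1 read 10.15, 9.97 and 10.07 in the knockouts, against 9.70, 9.64 and 9.86 in wild-type brains. The lowest knockout array was above the highest wild-type array. The difference was 0.33 ± 0.107, or 1.26-fold higher (limma adjusted p = 0.257). Col6a2, which lies 3 annotated genes from Col6a1 on chromosome 10, differed by 0.24 ± 0.117 and 0.42 ± 0.171 in its probe sets, with overlapping groups in both. Col6a3, the large chain, differed by 0.08 (95% interval -0.19 to 0.34), and without wild-type replicate 4 by -0.01. Over the 8 collagen genes together, 4 were above 0 and 4 below, with a median of 0.02. The median was -0.26 for the fibrillar chains and 0.24 for collagen VI, a contrast that was described and not tested. Over all their probe sets the medians were -0.05 and 0.28.

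**Figure D2:**
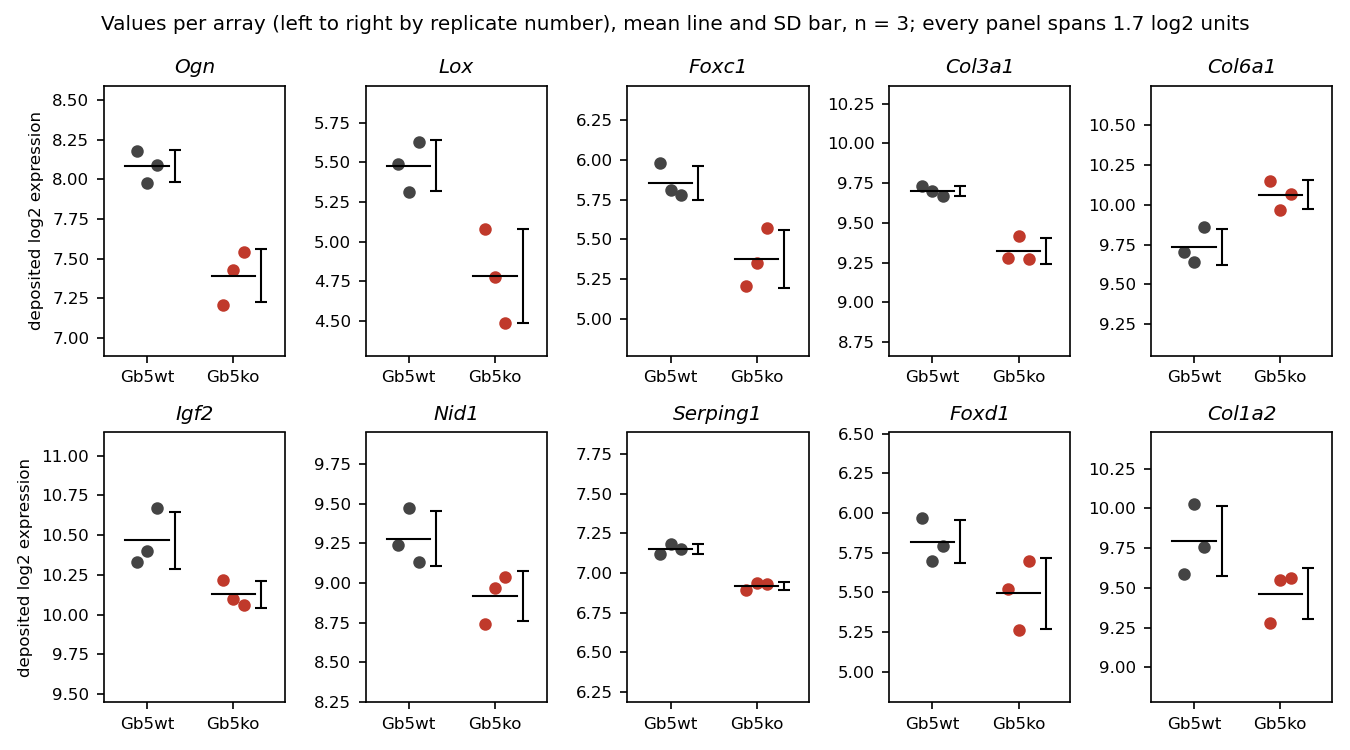
Deposited log2 values of each array for the 10 members with an unadjusted p under 0.05, wild type on the left and knockout on the right, with the group mean (line) and SD (bar, n = 3); every panel spans the same log2 range. Groups are separate in 9 panels, with the knockouts above the wild types only for Col6a1, and Foxd1 is the panel where they meet.

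Of the 2 lysyl oxidases, Lox, the founding enzyme of collagen cross-linking, read 5.08, 4.78 and 4.49 in the knockouts, against 5.49, 5.31 and 5.63 in wild-type brains. The groups did not overlap, and the knockout arrays spread more than the wild-type arrays (SD 0.296 and 0.161). The difference was -0.69 ± 0.158, or 1.61-fold lower (limma adjusted p = 0.193), and it ran from -0.84 to -0.54 when single arrays were left out. Both other Lox probe sets were dimmer and also below 0, at -0.22 and -0.11. Loxl1, the isoform tied to elastic fibres, differed by -0.03 (95% interval -0.32 to 0.26), and by -0.14 in its other probe set. It lies on chromosome 9 with Gnb5, 362 annotated genes away.

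Among the small leucine-rich proteoglycans, Ogn (osteoglycin or mimecan, which binds collagen fibrils) stood lowest in the knockouts. Its brightest probe set read 7.21, 7.43 and 7.54 in the knockouts, against 8.18, 7.98 and 8.09 in wild-type brains. The gap between the groups was wider than the spread within either. The difference was -0.69 ± 0.119, or 1.61-fold lower, and its limma adjusted p of 0.158 was the smallest of all members. The second Ogn probe set was close in sign and size, with 4.83, 4.67 and 4.96 against 5.74, 5.22 and 5.68, a difference of -0.73 ± 0.152 (limma adjusted p = 0.187). Leaving out single arrays kept the brighter one between -0.76 and -0.60, with adjusted p values from 0.163 to 0.435.

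The other members of this family differed less. Fmod (fibromodulin), a fibril-binding proteoglycan, read 10.14, 10.08 and 10.44 in the knockouts, against 10.35, 10.22 and 10.41 in wild-type brains. All its 6 probe sets were below 0, from -0.25 to -0.01, with overlapping groups. The suffix of 5 of them marks probe sets that can cross-hybridise. Lum (lumican) differed by -0.24 ± 0.12 at a low level of 3.83. Dcn (decorin), which binds collagen and TGF-beta, differed by -0.19 ± 0.159 in its brighter and 0.19 ± 0.197 in its dimmer probe set. Bgn (biglycan) differed by 0.12 ± 0.0971 in its brightest probe set, where the groups did not overlap, and by -0.12 and 0.08 in the others. The intervals of Dcn and Bgn span 0 in every probe set, so their direction was not resolved.

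The matrix glycoproteins had a median of -0.11 over 8 genes, with 5 below 0. Nid1, the nidogen that links laminin to collagen IV in basement membranes, read 8.74, 8.97 and 9.04 in the knockouts, against 9.24, 9.47 and 9.13 in wild-type brains. Groups were separate by a narrow margin, and the difference was -0.37 ± 0.128 (limma adjusted p = 0.272). The other Nid1 probe sets differed by -0.20 and -0.22. Mgp, the matrix Gla protein that restrains calcification, read 10.40, 10.42 and 10.48 against 10.34, 10.86 and 10.90. Its knockout arrays lay close together while wild-type replicate 4 sat below all of them. The difference was -0.26 ± 0.152, and it was -0.45 without that array and -0.17 without wild-type replicate 6. Fn1 (fibronectin) differed by -0.10 ± 0.0986, and by 0.12 in its dimmer probe set. Fbln2, a fibulin of basement membranes and elastic fibres, differed by -0.14 and 0.04, Thbs2 (thrombospondin 2) by -0.11 and Postn (periostin) by 0.05. The collagen-binding Aebp1 differed by 0.08, and by -0.06 and -0.26 in its dimmer probe sets, with separate groups in the last. Fbln1 was above 0 in all its probe sets, at 0.10, 0.10 and 0.35. A dim Thbs2 probe set had separate groups at -0.41 ± 0.128, while another of that gene differed by 0.14.

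Of the secreted factors, Igf2, the fetal-type insulin-like growth factor that the adult meninges and choroid plexus keep expressing, read 10.22, 10.10 and 10.06 in the knockouts, against 10.33, 10.40 and 10.67 in wild-type brains. The groups did not overlap. The difference was -0.34 ± 0.119, or 1.27-fold lower (limma adjusted p = 0.27), and the second Igf2 probe set differed by -0.30 ± 0.127. Igfbp2, which binds IGFs, differed by 0.18 ± 0.166. That value rests on knockout replicate 1, which read 9.50 against 9.03 and 8.82 in the other knockouts, and without it the difference was -0.01. Serping1, the C1 inhibitor of complement, read 6.89, 6.94 and 6.93 against 7.12, 7.18 and 7.15. Both groups were tight (SD 0.0297 in each), and the difference was -0.23 ± 0.0928 (limma adjusted p = 0.321). Ptgds, the prostaglandin D synthase of the leptomeninges, read 13.82, 13.82 and 13.86 against 13.80, 13.93 and 13.90, a difference of -0.05 (95% interval -0.26 to 0.17), and its second probe set differed by -0.09. Islr, a leucine-rich secreted protein of mesenchymal cells encoded on chromosome 9, differed by -0.11 ± 0.094 with separate groups.

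The meningeal transporters differed little. Slc6a20a, a sodium-coupled imino acid transporter, read 7.90, 8.06 and 8.29 in the knockouts, against 8.35, 8.46 and 8.23 in wild-type brains. Knockout replicate 3 lay inside the wild-type range, and the difference was -0.26 ± 0.126 (limma adjusted p = 0.372). This gene is also on chromosome 9, 981 annotated genes from Gnb5. Slc22a6, the organic anion transporter OAT1, differed by -0.10 (95% interval -0.34 to 0.14) and -0.04 in its probe sets. Slc6a13, the GABA transporter GAT2, differed by -0.01 (95% interval -0.31 to 0.30), and its sign turned in several leave-one-out fits. Their median of -0.10 stood beside -0.19 for the proteoglycans and -0.26 for the fibrillar collagens. Over all probe sets of each role the medians were -0.07, -0.13 and -0.05, so the order of the roles depends on the reading. No role group was tested against another.

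Among the regulators, both forkhead factors read lower in their brightest probe sets. Foxc1, the forkhead factor required for meningeal development, read 5.21, 5.35 and 5.57 in the knockouts, against 5.98, 5.81 and 5.78 in wild-type brains, with no overlap. The difference was -0.48 ± 0.123, or 1.39-fold lower (limma adjusted p = 0.214). A second Foxc1 probe set of similar level gave 0.09 ± 0.167, so the direction read for the gene depends on the probe set. Foxd1, a forkhead factor of stromal and mural precursors, read 5.52, 5.26 and 5.70 against 5.97, 5.70 and 5.79, a difference of -0.33 ± 0.136 with knockout replicate 3 reaching the lowest wild-type array. It was -0.21 without knockout replicate 2 and -0.13 without that array and wild-type replicate 4. Crabp2, which carries retinoic acid to its receptors, read 7.40, 7.27 and 7.07 against 6.90, 7.14 and 7.45. Its arrays were intermingled, and the difference was 0.08 ± 0.154.

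Where several probe sets read 1 gene, they did not always give 1 sign. Of 22 such genes, 10 were below 0 in every probe set (among them Ogn, Lox, Col3a1, Nid1, Igf2 and Fmod), 3 were above 0 in every one (Col5a1, Col6a2 and Fbln1) and 9 had both signs. Those 9 included Col1a1, Dcn, Bgn, Fn1, Foxc1, Thbs2 and Aebp1. The position of each probe set on its transcript was not used here. With the mean over a gene's probe sets in place of the brightest, 22 of 34 members were below 0. At an unadjusted limma p under 0.05, 8 were lower and 3 higher. Over all genes read this way, 4.83% were lower at that level and 15.8% reached it in either direction.

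**Figure D3:**
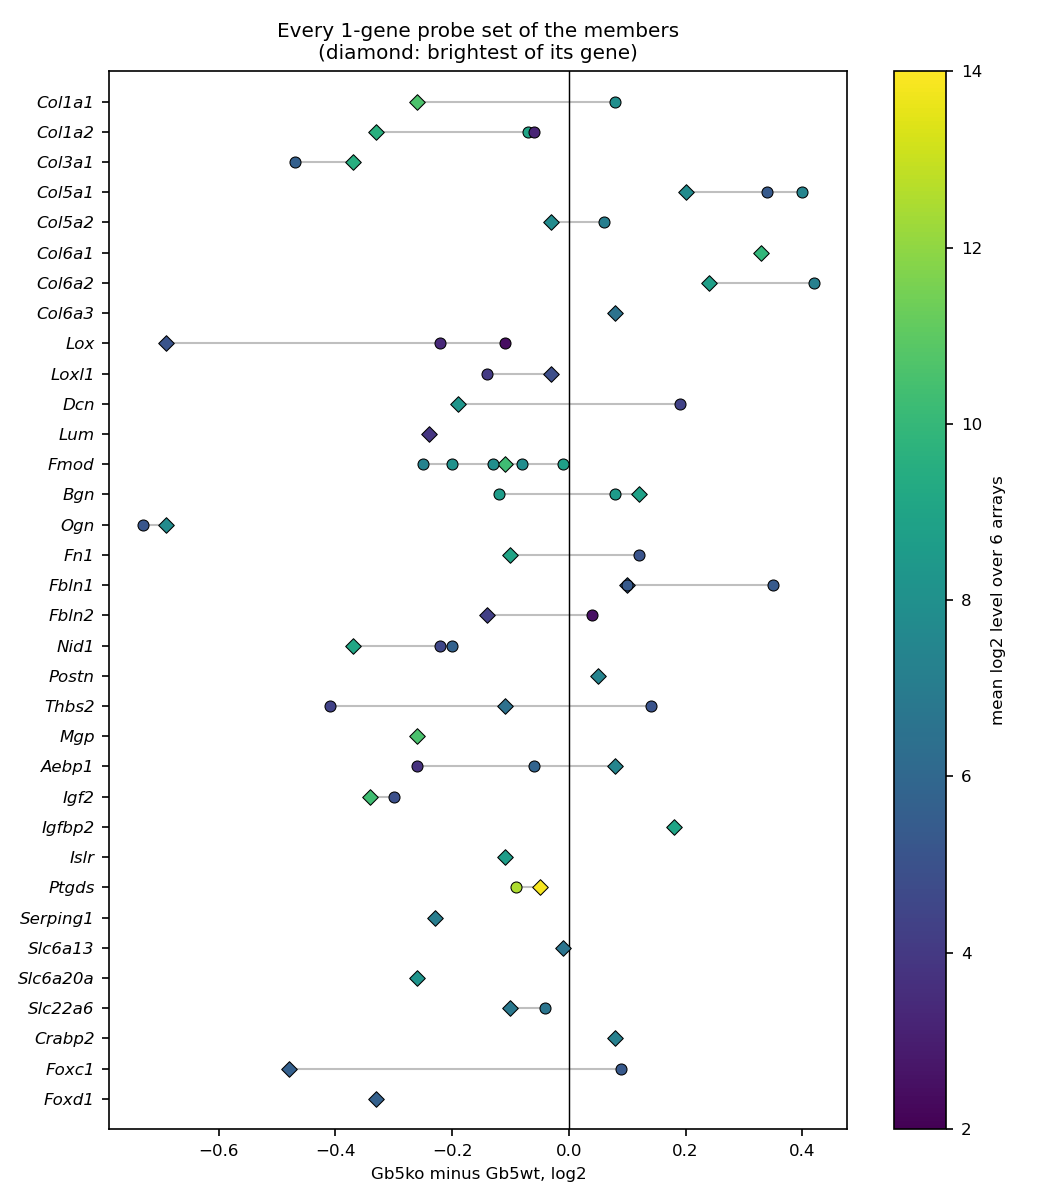
Difference between knockout and wild-type means on the log2 scale for all 68 probe sets of the members, with grey lines joining probe sets of a gene, diamonds for the brightest and colour for the mean log2 level. Both Ogn probe sets lie near -0.7, all Col5a1 and Col6a2 probe sets lie right of 0, and those of Col1a1, Dcn and Foxc1 fall on both sides.

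The members did not move as 1 block across the arrays. The median deviation of the 34 genes from their own 6-array means was -0.03, -0.1 and -0.06 in knockout replicates 1 to 3 and 0.03, 0.1 and 0.04 in wild-type replicates 4 to 6, so the groups were separate by a small step. For the fibrillar collagens the groups were also separate, with medians of -0.18, -0.09 and -0.07, against 0.03, 0.18 and -0.04. Collagen VI ran the other way, at 0.23, 0.04 and 0.15 against -0.2, -0.24 and -0.04. For the transporters the groups overlapped, at 0.05, -0.18 and -0.02 against 0.03, 0.14 and 0.01. Within a genotype, pairs of members showed little common order. Over 561 pairs, the median number of arrays on which both genes lay on the same side of their group means was 3 of 6, with 14 pairs on the same side on every array and 14 on none. Col1a1 and Col1a2, whose products join in 1 trimer, shared a side on 4 arrays, and so did Col6a1 and Col6a2. Lox shared a side with Col1a2 on 0 arrays and with Col5a1 on 6. Within a group of 3 the deviations sum to 0, so these counts only describe the arrays.

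**Figure D4:**
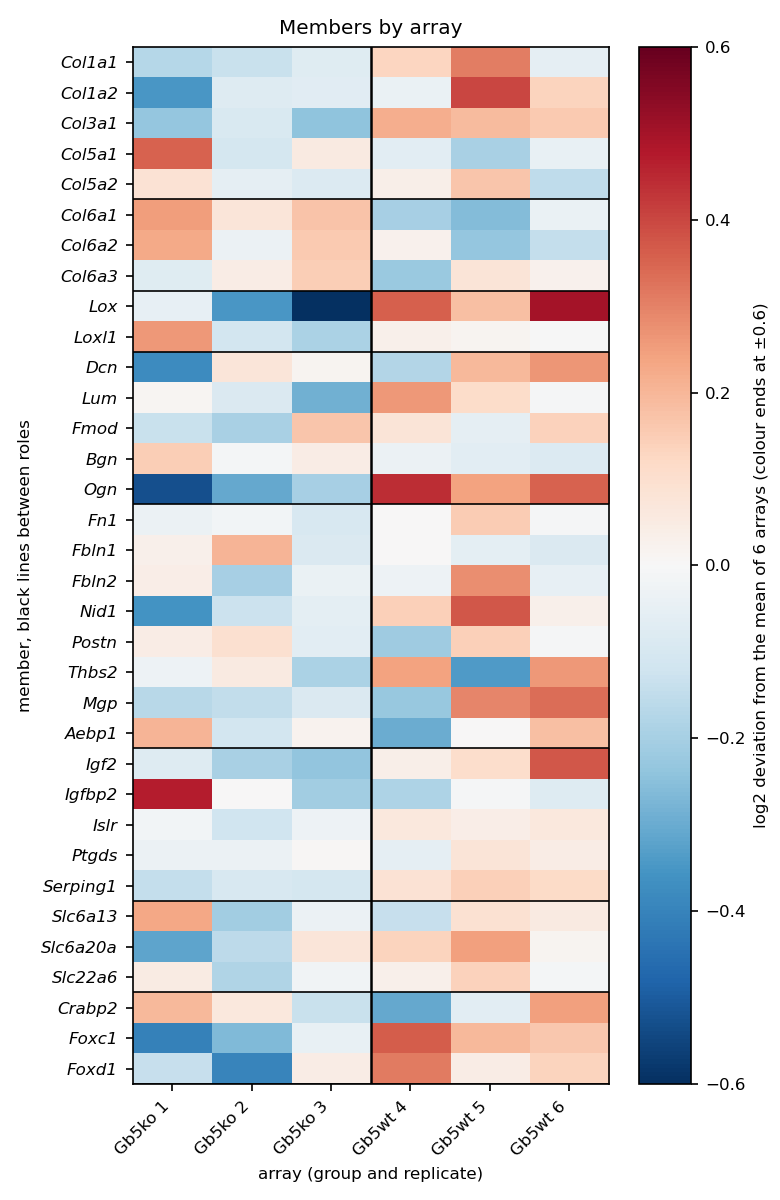
Log2 deviation of each member (rows, ordered as in the text with black lines between roles) from its own mean over the 6 arrays (columns, 3 knockout and 3 wild-type arrays). The rows of Ogn, Lox, Foxc1 and Col3a1 are blue in every knockout array and red in every wild-type array, while Col6a1 shows the opposite and many other rows change colour within a group.

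Markers of other cells that the dissection can include were read on the same arrays. Of 17 further meningeal fibroblast markers, 0 passed the adjusted limma test, 5 were lower at an unadjusted p under 0.05 and 0 higher, with a median of -0.11. Over all genes 5.68% were lower and 9.89% higher at that level, the background for this and every list count that follows. These lists too were chosen with earlier results of these data known. The lowest were Foxc2, the forkhead paralog of Foxc1, at -0.70 ± 0.146 (limma adjusted p = 0.187), Cdh1, a cadherin of the arachnoid barrier, at -0.47 ± 0.0993 and Cldn11, a claudin shared by arachnoid and myelin, at -0.59 ± 0.187. The 9 markers listed for arachnoid and dura had a median of 0.11, with 6 above 0 and 3 below. Pi16, at 0.42 ± 0.151, was the only one at an unadjusted limma p under 0.05, and Mfap5 was at -0.24. Cdh1 and Cldn11, though tied to arachnoid, were counted in the fibroblast list, so these medians depend on how genes were assigned. No gene of the other marker lists passed the adjusted limma test either. Choroid plexus markers held 2 lower genes at an unadjusted p under 0.05, endothelium 1, mural cells 1 lower and 1 higher, astrocytes 3 lower and 1 higher, microglia 4 higher and myelin 2 lower. Neurons held 2 lower genes (Snap25 and Gad1, at -0.33 each) and 0 higher. Of the 8 neuronal markers 4 were below 0 and 4 above, among them Tubb3 and Slc17a7 at 0.27 each. Blood cells held 1 lower and 1 higher (Slc4a1 at -0.93 and S100a9 at 0.91), bone and cartilage 1 lower, and pituitary and skeletal muscle 1 higher each. Mean levels of the 12 choroid plexus markers ran from 6.37 to 6.79 in the knockouts and from 6.50 to 6.84 in the wild types. They were lowest on knockout replicate 3 for 10 genes and on wild-type replicate 4 for 11. For the 12 endothelial markers the ranges were 7.71 to 7.84 and 7.71 to 8.04, and for the 12 mural markers 6.69 to 6.79 and 6.74 to 6.95. Wild-type replicate 5 was the highest of its group for 10 endothelial and 9 mural genes, the same array that was highest for Col1a1, Col1a2, Nid1 and every transporter. Median differences were -0.09, -0.10 and -0.04 for choroid plexus, endothelium and mural cells. Rgs5, a pericyte gene, differed by -0.43 ± 0.135. Bone and cartilage markers ran from 5.44 to 5.47 and from 5.40 to 5.54. Medians were 0.12 for skeletal muscle, -0.16 for astrocytes, 0.24 for microglia and -0.24 for myelin, against 0.00 for neurons, -0.11 for blood cells and 0.42 for pituitary. All 9 pituitary markers were highest of the knockouts on replicate 3. All 7 myelin markers were highest of their group on knockout replicate 3 and wild-type replicate 6, and lowest of the knockouts on replicate 1. The groups overlapped in the median deviation of both lists. The part of the listed cells in the members' differences was not tested.

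Other genes of the matrix pathway gave 1 call. Of 9 further collagens only Col12a1, which decorates collagen I fibrils and lies on chromosome 9 near Gnb5, passed. It fell by 2.08 ± 0.147 (limma adjusted p = 0.00115) in 1 probe set, while its others differed by -0.09, -0.01 and 0.10. The median of these collagens was 0.09. In collagen processing, 0 of 13 genes passed, 1 was lower at an unadjusted p under 0.05 and 0 higher. The lower one was Serpinh1 (Hsp47), the chaperone that collagens need to fold, which read 8.20, 8.25 and 8.41 in the knockouts, against 8.79, 8.86 and 8.83 in wild-type brains. Its groups stood clearly apart at -0.54 ± 0.102 (limma adjusted p = 0.173), whereas its second probe set differed by -0.02. In elastic fibres and the other lysyl oxidases, 0 of 12 passed and 1 was lower unadjusted, Efemp1 (fibulin 3) at -0.64 ± 0.192, with values of 7.18, 7.62 and 8.06 against 8.29, 8.25 and 8.25.

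Among 8 further small leucine-rich proteoglycans 0 passed, with 1 lower and 1 higher at an unadjusted limma p under 0.05. Omd (osteomodulin), the annotated neighbour of Ogn on chromosome 13, read 4.88, 5.25 and 5.22 in the knockouts, against 5.85, 5.76 and 5.81 in wild-type brains. Its difference of -0.69 ± 0.122 (limma adjusted p = 0.162) was as large as that of Ogn. Aspn (asporin) and Ecm2, the next genes in that cluster, were dim and differed by -0.15 and 0.12. Prelp, a basement membrane proteoglycan, was 0.30 ± 0.123 higher with separate groups. Of 10 receptors for collagen and fibronectin, 0 passed, 3 were lower unadjusted and 0 higher. These were the collagen-binding kinases Ddr1 (-0.58 ± 0.148) and Ddr2 (-0.38 ± 0.124), and Itgav (-0.33 ± 0.109), the alpha V integrin. Ddr1 is also a gene of oligodendrocytes, and its other probe sets ran on both sides of 0.

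Matrix proteases and their inhibitors held 0 calls in 11 genes, with Mmp2, a gelatinase of fibroblasts, 0.30 ± 0.109 higher as the only one at an unadjusted p under 0.05. Of 12 genes for TGF-beta ligands, receptors and targets, 0 passed and 0 reached that level, and their differences ran from -0.24 to 0.24. Of 9 IGF system genes 0 passed, and Igfbp4, an IGF-binding protein, was the single lower one unadjusted at -0.33 ± 0.105, with other probe sets on both sides of 0. Of 9 retinoid genes 0 passed and 2 were lower unadjusted. They were Aldh1a2, the retinoic acid synthase of meninges, at -0.37 ± 0.1, and Rdh10, the retinol dehydrogenase upstream of it, at -0.26 ± 0.0951. Aldh1a2 lies 68 annotated genes from Gnb5.

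Several arrays stood apart in genes other than the members. Gnb5 read 3.67, 3.00 and 3.56 in the knockouts, against 8.79, 8.98 and 9.30 in wild-type brains, in the direction of the labels. The neuronal markers had a median level of 12.08. Knockout replicate 3 was high for pituitary Gh (10.62, against 4.20 to 6.21 in the other arrays), and knockout replicate 2 gave signal for both the Y-linked Eif2s3y (11.28) and Xist (8.31). In their brightest probe sets, both genes also gave signal in knockout replicate 3 (6.97 and 10.62) and wild-type replicate 5 (6.05 and 10.81). Wild-type replicate 4 was alone in its low Xist (4.96, with Eif2s3y at 11.26). A dimmer Eif2s3y probe set read 6.39 in knockout replicate 2 and 6.56 in wild-type replicate 4. It read 3.64 to 4.30 in the other arrays, knockout replicate 3 and wild-type replicate 5 included. Leaving out knockout replicate 3 and wild-type replicate 6, the arrays with most Gh, 8 members were lower and 1 higher at an unadjusted limma p under 0.05. Of all probe sets 4.8% were then lower and 11.1% reached that level in either direction. Leaving out knockout replicate 2 and wild-type replicate 4, those with most Eif2s3y, the counts were 8 and 2. The shares of all probe sets were then 4.76% lower and 10.5% in either direction.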

How the data were processed

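Total RNA from 3 Gb5ko and 3 Gb5wt brains was measured on 6 arrays. The deposited table holds normalized log2 expression per probe set, made by the authors, with RMA and Partek listed, without versions, in the submitters' processing notes. In RMA values dim probe sets keep a low positive level, so changes near background are compressed. No detection calls were used here. Values ran from 1.91 to 14.4, with array medians from 5.81 to 5.85, and were not normalized again.

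After 64 control probe sets were left out, 45037 were fitted in limma 3.58.1 under R 4.3.3 (lmFit, then eBayes; two-sided), with Benjamini-Hochberg adjustment over all of them and a threshold of 0.05. The fit was tested on simulated data. It called 4 of 50 changes of 1.5-fold, 35 of 50 of 2-fold and 49 of 50 of 4-fold, and 3 of 44837 unchanged probe sets. Most changes near 1.5-fold were thus missed, so the lack of calls among the members does not show a lack of change. In the platform annotation 34945 probe sets had 1 gene, 932 several and 9160 none. Differences are knockout minus wild type, with the standard error of the fit, median 0.123. The number of arrays limits the precision. RefSeq tables of GRCm38.p6 gave chromosomes, gene order and promoters. Motifs were counted over every window of the table outside chromosome 18, which was left out. The labels give no batch or scan date.

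The members and all lists were chosen with earlier results of these data known. All members are named. Arrays are given one by one for members at an unadjusted p under 0.05 and for the member of smallest p and of highest signal in each role. Up to 3 genes of smallest p stand for the other lists, and a further one was added, with its values already seen, where a count or a gene neighbour called for it. Listed genes without a 1-gene probe set were not analysed here. Alternatives covered normalization, centring, a filter on dim signal, the variance model, array weights, 1 probe set per gene, other readings of a gene and left-out arrays. Figures were drawn with matplotlib 3.10.9.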

Additional observations from a re-analysis of the deposited data

How the results depend on the processing

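No member passed the adjusted threshold under any alternative run, and the smallest adjusted p was 0.094, for Ogn with trend and robust eBayes. The median member difference stayed from -0.14 to -0.08. No paired analysis was run. The labels describe littermates, but the sample titles number replicates 1 to 3 as knockouts and 4 to 6 as wild types and name no pairs. With single arrays left out, 9 to 12 probe sets were called over all. Of the 68 member probe sets, 9 to 19 then had an unadjusted limma p under 0.05. The count was 17 with all arrays, 11 without knockout replicate 1 and 9 without wild-type replicate 6. Over all probe sets the shares were 14.4%, 9.74% and 11.7% in these fits, and at most 15.0% without a single array. Lower without overlap were 14 to 25 member probe sets (14 with all arrays, 22 without knockout replicate 3 and 25 without wild-type replicate 4). Over all probe sets that share was 8.95% with all arrays and 12.3% to 14.4% with single arrays left out. The count was 23 without the arrays of highest Gh and 27 without those of highest Eif2s3y, against 18.5% and 18.9% of all probe sets. Leaving out dim probe sets, which tests fewer, kept 41 of the member probe sets, from 27 members. Lox, Foxc1 and Foxd1 were not among the members kept. Of the 41 probe sets, 10 had an unadjusted limma p under 0.05, against 20.9% of all probe sets kept. Lower without overlap were 9, against 12.3%. Over all probe sets, 23 were called with trend and robust eBayes and 27 with array weights, where the cause was not tested. With 1 probe set per gene fewer were tested and 4 were called. There 11 members had an unadjusted limma p under 0.05, against 17.4% of all genes. Up to 5 members changed sign under 1 alternative. With the probe set of largest SD these were Col1a1 (0.08, against -0.26), Dcn, Bgn, Fn1 and Aebp1, and without the arrays of highest Eif2s3y they were Col6a3, Loxl1, Postn, Slc6a13 and Crabp2. Without detection calls, dim members such as Lum, Fbln2 and the lesser Lox probe sets may lie at background.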

Other observations

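In their brightest probe sets, the 4 members on chromosome 13, Ogn, Nid1, Foxc1 and Foxd1, were all lower at an unadjusted limma p under 0.05. Of the 702 genes measured on that chromosome, 6.27% were lower at that level. A second Foxc1 probe set differed by 0.09. These members are not neighbours: Foxc1 lies 317 annotated genes from Ogn, Nid1 843 and Foxd1 932. Omd, which adjoins Ogn, was also lower, at -0.69, while Aspn and Ecm2, the next genes of that cluster, differed by -0.15 and 0.12. On chromosome 9, which carries Gnb5, the 3 members Loxl1, Islr and Slc6a20a included 0 at that level, against 5.99% lower and 9.28% higher of 1002 genes. This grouping by chromosome was noticed after the values were seen and was not tested.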
